A study of Mus musculus with 6 samples.

Results

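The transcripts described here encode the receptor chains, kinases and transcription factors of the interferon response: Ifnar1, Ifnar2, Jak1, Tyk2, Stat2, Irf1, Irf3, Irf7 and Irf9. They were taken by symbol from the table of normalised read counts, where all 9 had a row among 16540 listed genes. The cells were NIH-3T3, an established mouse embryonic fibroblast line from NIH/Swiss stock, and RNA was sequenced from pools carrying PC sg2 (2 libraries), PC sg5 (2 libraries) or the control guide R26 sg1 (2 libraries). Both PC guides are named after pyruvate carboxylase, a mitochondrial enzyme making oxaloacetate from pyruvate, and the control guide after the Rosa26 locus, a commonly used neutral site. All 3 kinds of pool, control included, had taken up Cas9 and a guide by lentivirus, had been selected with 2 ug/mL puromycin, were not cloned, and spent 48 h in 0.2 mM glutamine with 10% dialyzed serum. No interferon treatment is given in the labels. All pools had been transduced and selected, so whether the values equal the level of untreated cells was not tested. Whether a guide's 2 libraries stem from separate cultures is not stated in the labels, and the p-values therefore reflect the spread between libraries alone, which may be technical.

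Type I interferons bind a receptor made of the chains IFNAR1 and IFNAR2, which hold the kinases TYK2 and JAK1. The kinases phosphorylate STAT proteins, among them STAT2, which enters the complex ISGF3 with IRF9, and ISGF3 binds the interferon-stimulated response element in the promoters of antiviral genes. IRF3 and IRF7 act earlier and switch on the interferon genes once sensors detect foreign nucleic acid, while IRF1 acts on genes induced by interferon gamma. Several of these factors, among them Stat2, Irf1, Irf7 and Irf9, are themselves interferon-induced in many cell types.

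The promoters of 3 members are shown because their transcripts had the lowest fold changes of the 9. The sequences are the 250 bases before the RefSeq start on GRCm38.p6, written 5′ to 3′ on the gene's strand, and capitals mark a match to a searched motif.

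Irf7 (chr7:141266425-141266674, minus strand): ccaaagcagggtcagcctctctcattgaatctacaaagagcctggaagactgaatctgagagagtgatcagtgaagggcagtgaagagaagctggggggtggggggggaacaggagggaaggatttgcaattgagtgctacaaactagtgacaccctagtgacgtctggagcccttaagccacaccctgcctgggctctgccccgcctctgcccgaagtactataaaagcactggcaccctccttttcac
Stat2 (chr10:128270248-128270497, plus strand): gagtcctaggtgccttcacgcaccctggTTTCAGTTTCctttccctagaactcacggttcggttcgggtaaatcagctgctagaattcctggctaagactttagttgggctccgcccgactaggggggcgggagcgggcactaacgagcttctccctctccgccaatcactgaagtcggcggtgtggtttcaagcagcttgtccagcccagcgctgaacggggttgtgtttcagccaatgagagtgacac
Irf1 (chr11:53769764-53770013, plus strand): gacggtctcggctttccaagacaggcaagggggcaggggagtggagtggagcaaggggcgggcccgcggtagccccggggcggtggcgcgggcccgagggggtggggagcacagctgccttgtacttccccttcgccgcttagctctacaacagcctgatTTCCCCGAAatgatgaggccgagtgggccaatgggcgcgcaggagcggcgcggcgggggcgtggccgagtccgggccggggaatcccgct

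The motifs searched, on both strands and in the window from 250 bases before to 50 bases after the RefSeq start, were the core of the interferon-stimulated response element, GAAANNGAAA, and the gamma-activated site, TTCNNNGAA. The response element core occurred in the windows of 1131 of 32851 RefSeq promoters (3.44%) and the gamma-activated site in 2726 (8.30%). Among the 9 members only the window of Stat2 held the response element core, on the opposite strand and starting 222 bases before the start. The gamma-activated site occurred 90 bases before the start of Irf1 (TTCCCCGAA), 214 bases before that of Ifnar2 (TTCCTGGAA) and across that of Ifnar1 (TTCACGGAA). The first windows of Irf7, Irf9, Irf3, Jak1 and Tyk2 and the second RefSeq windows of Irf1 and Irf9 held neither. Only exact matches inside these windows were searched, so inexact sites and sites elsewhere would have been missed. A match describes letters only, and the RefSeq start differed from the GENCODE gene start by 0 to 61 bases, except in the second window of Irf1 (459 bases) and both windows of Irf9 (414 and 1008 bases).

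The targeted transcript was read first as a check of the labels. Pcx, the pyruvate carboxylase gene, had 316 and 375 normalised counts with PC sg2, 713 and 716 with PC sg5, and 2914 and 3015 in the control. All 4 PC libraries were far below both controls, while Gt(ROSA)26Sor, the transcript of the Rosa26 locus, had a log2 fold change of 0.0041 (limma adjusted p = 0.968). Whether the control guide changes Gt(ROSA)26Sor is not known here, so its value does not check the labels. Recovered reads per library lay between 22895172 in PC sg5 replicate 2 and 71710049 in control replicate 2, and the 9 members had between 210 reads (Irf7 in PC sg5 replicate 2) and 21775 reads (Jak1 in control replicate 2). A count of 0 would have allowed up to 2.18 to 6.41 normalised counts per library (3 reads, counting error only). Of 10 fibroblast markers 9 were measured and all 9 fell, where 33.6% of all tested genes did. Col1a1 averaged 92987 normalised counts in the PC libraries against 269755 in the control. Under quantile normalisation Fn1 showed no difference. That method gives equal values to a gene of equal rank in every library, so it cannot test the fall of Fn1. Leukocyte and macrophage markers were low: 7 of 14 were measured, with a summed level of 1317 to 1367 normalised counts in the PC libraries against 2061 to 2168 in the control, 5 of the 7 fell, and the part of such cells in the results below was not tested. In bulk RNA, fewer cells expressing a gene and less RNA per cell cannot be told apart.

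All 9 transcripts fell with both PC guides together against the control. By limma with Benjamini-Hochberg adjustment over 16526 tested genes, where 67.9% were called in either direction, each had an adjusted p of at most 0.000644, and the log2 fold changes ranged from -1.85 for Irf7 to -0.24 for Irf3, with a median of -0.76. Falls were common in this comparison: 33.6% of all tested genes passed the threshold as lower, and the median over all tested genes was -0.01. In every member the 4 PC libraries lay below both control libraries, as they did for 36.6% of tested genes. A fall of at least 2-fold was found for 3 members, Irf7, Stat2 and Irf1, and for 12% of tested genes. Each of the 9 kept its direction and its call under all 16 alternatives run for this comparison.

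**Figure D1:**
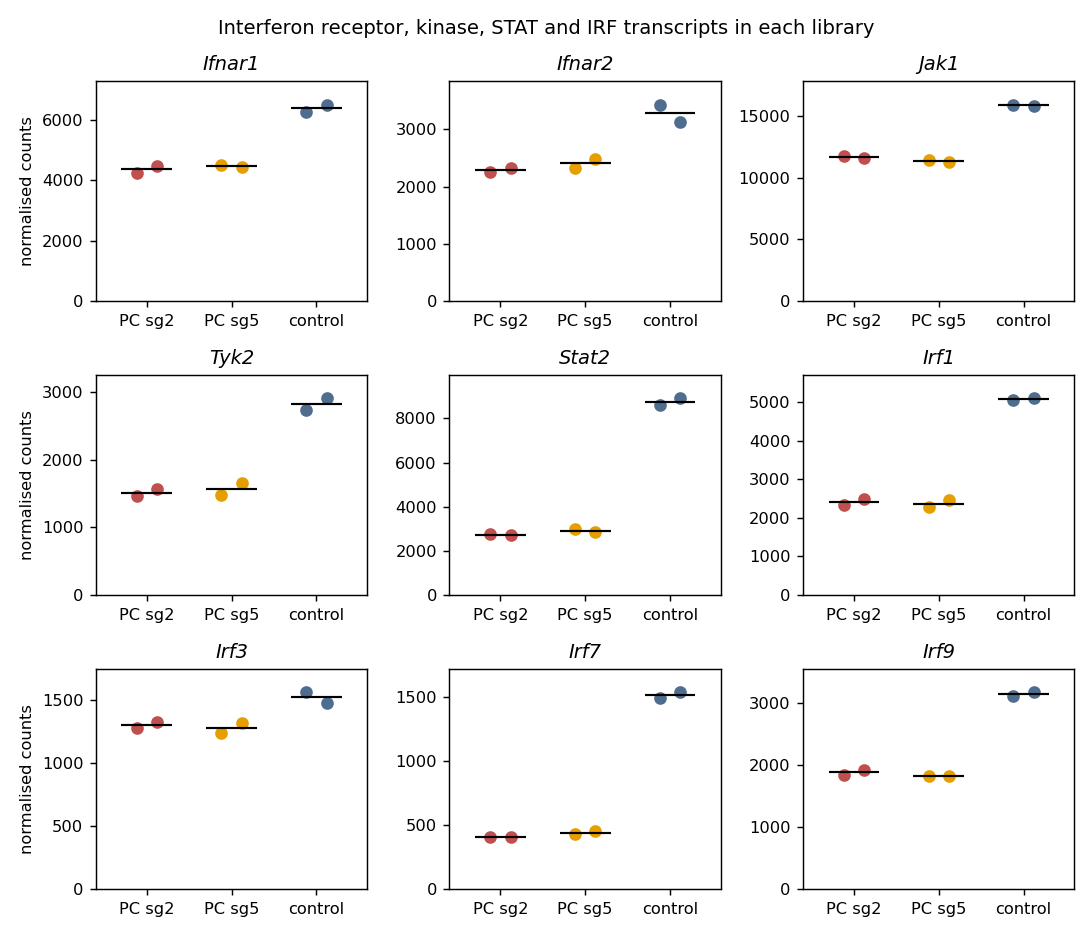
Normalised counts (linear axis from 0) of the 9 transcripts in each library, with PC sg2, PC sg5 and control from left to right; points are libraries (2 per guide) and horizontal lines are group means. In each panel both control libraries lie above all 4 PC libraries, with the widest gaps for Irf7 and Stat2 and the narrowest for Irf3.

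The receptor chains fell to a similar extent. Ifnar1, the chain that binds TYK2 (ENSMUSG00000022967, GRCm38 chromosome 16, 91485238 to 91507441, plus strand), had 4255 and 4469 normalised counts with PC sg2, 4502 and 4450 with PC sg5, and 6252 and 6503 in the control. The PC libraries lay close together and below both controls, at 69.3% of the control mean. The log2 fold change was -0.53 ± 0.03 (SE), with a limma adjusted p of 1.00e-11. Ifnar2, the chain that binds JAK1 (ENSMUSG00000022971, chromosome 16, 91372783 to 91405589, plus strand), had 2254 and 2320 normalised counts with PC sg2, 2323 and 2488 with PC sg5, and 3428 and 3125 in the control. The groups did not overlap, although the control SD of 214 was the largest of the 9 relative to its mean. Ifnar2 fell by 0.48 ± 0.05 (SE) on the log2 scale, with a limma adjusted p of 6.30e-09. Of its exon bases, 9.46% are shared with the read-through gene model Gm21970 on the same strand. The ratio of Ifnar1 to Ifnar2 per kilobase of principal transcript was 1.39 to 1.51 in the PC libraries and 1.42 to 1.62 in the control, so the chains kept an overlapping ratio.

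The kinases of the receptor fell by unequal amounts. Jak1, the kinase bound to IFNAR2 (ENSMUSG00000028530, chromosome 4, 101152367 to 101265282, minus strand), had 11718 and 11585 normalised counts with PC sg2, 11411 and 11277 with PC sg5, and 15889 and 15790 in the control. Its PC libraries lay within a narrow band at 72.6% of the control mean. For Jak1 the log2 fold change was -0.46 ± 0.03 (SE; limma adjusted p = 4.73e-13). Tyk2, the kinase bound to IFNAR1 (ENSMUSG00000032175, chromosome 9, 21104068 to 21131243, minus strand), had 1458 and 1567 normalised counts with PC sg2, 1476 and 1650 with PC sg5, and 2726 and 2901 in the control. It stood at 54.7% of the control mean, again without overlap, and its log2 fold change was -0.87 ± 0.05 (SE; limma adjusted p = 3.62e-12). The 95% interval of Tyk2, -0.98 to -0.76, and that of Jak1, -0.52 to -0.41, did not meet. Within each library the ratio of Tyk2 to Jak1 per kilobase was 0.126 to 0.149 in the PC libraries and 0.174 to 0.187 in the control. The antisense gene 1700084C06Rik shares 8.07% of the exon bases of Tyk2, and the sources used here do not say whether counting used the strand.

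Stat2, the STAT that enters ISGF3 with its transactivation domain (ENSMUSG00000040033, chromosome 10, 128270559 to 128292849, plus strand), had 2748 and 2726 normalised counts with PC sg2, 2973 and 2851 with PC sg5, and 8614 and 8901 in the control. It averaged 2825 ± 113 (SD, n = 4) in the PC libraries and 8757 ± 203 (SD, n = 2) in the control. No PC library came near a control, and the PC mean was 32.3% of the control mean. The log2 fold change was -1.63 ± 0.04 (SE), with a limma adjusted p of 9.88e-20, the smallest among the 9. Of 16476 tested genes with a symbol, 790 had a lower fold change. No other gene model overlaps the exons of Stat2.

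Irf9, the DNA-binding partner of the STATs in ISGF3 (ENSMUSG00000002325, chromosome 14, 55603571 to 55610030, plus strand), fell less than Stat2. It had 1847 and 1920 normalised counts with PC sg2, 1822 and 1821 with PC sg5, and 3116 and 3178 in the control. The PC libraries spanned 1821 to 1920 and averaged 58.9% of the control. The log2 fold change was -0.76 ± 0.04 (SE), with a limma adjusted p of 9.35e-13 and a 95% interval of -0.86 to -0.67, apart from that of Stat2, -1.71 to -1.56. The ratio of Irf9 to Stat2 per kilobase of principal transcript was 1.10 to 1.26 in the PC libraries and 0.638 to 0.646 in the control. Which of the pair is higher in the PC libraries depends on the length used: per kilobase of all annotated exons, Irf9 averaged 344 and Stat2 477 normalised counts in the PC libraries, against 584 for Irf9 and 1478 for Stat2 in the control.

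Irf7, the interferon-inducible factor that amplifies transcription of type I interferon genes (ENSMUSG00000025498, chromosome 7, 141262706 to 141266481, minus strand), had the lowest fold change of the 9. It had 403 and 402 normalised counts with PC sg2, 430 and 449 with PC sg5, and 1495 and 1537 in the control. It averaged 421 ± 22.8 (SD, n = 4) in the PC libraries and 1516 ± 29.2 (SD, n = 2) in the control. The PC mean was 27.8% of the control mean, and the groups lay far apart. The log2 fold change was -1.85 ± 0.07 (SE), with a limma adjusted p of 2.07e-15, and 559 of 16476 tested genes with a symbol had a lower one. The upper end of its 95% interval, -1.69, lay within that of Stat2.

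Irf3, the constitutive factor that TBK1 activates downstream of nucleic acid sensors (ENSMUSG00000003184, chromosome 7, 44997648 to 45002848, plus strand), had the smallest change of the 9. It had 1277 and 1325 normalised counts with PC sg2, 1233 and 1312 with PC sg5, and 1560 and 1477 in the control. The groups did not overlap, but the highest PC library and the lower control were 1325 and 1477, and the PC mean was 84.7% of the control mean. The log2 fold change was -0.24 ± 0.06 (SE), with a limma adjusted p of 0.000644 and an interval of -0.35 to -0.12 that met none of the other 8. The ratio of Irf7 to Irf3 per kilobase was 0.322 to 0.370 in the PC libraries and 1.02 to 1.10 in the control.

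Irf1, the factor induced by interferon gamma and active on antigen presentation genes (ENSMUSG00000018899, chromosome 11, 53770014 to 53778374, plus strand), fell to less than 50% of the control level. It had 2320 and 2480 normalised counts with PC sg2, 2287 and 2454 with PC sg5, and 5039 and 5090 in the control. Both controls were more than 2-fold above each PC library. For Irf1 the log2 fold change was -1.09 ± 0.04 (SE; limma adjusted p = 1.39e-15). Part of the exon sequence also lies in exons of a neighbouring gene, 3.40% for Irf1, 2.56% for Irf3, 2.28% for Irf9, 1.19% for Irf7 and 0.0553% for Jak1.

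**Figure D2:**
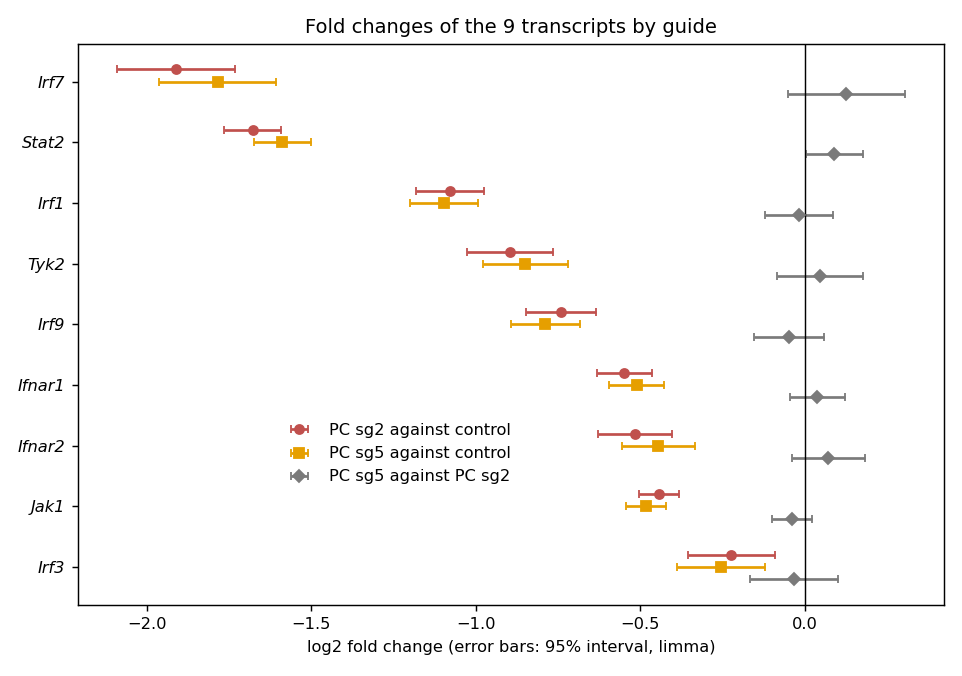
Log2 fold changes of the 9 transcripts (horizontal axis) with 95% intervals from limma, for PC sg2 against control (circles), PC sg5 against control (squares) and PC sg5 against PC sg2 (diamonds), 2 libraries per guide. The values against control run from about -1.9 for Irf7 to -0.22 for Irf3 with both guides on nearly the same points, and the diamonds lie near 0.

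Because the 9 fell by unequal amounts, the order of their levels differed between the groups. Per kilobase of principal transcript, Jak1 was highest in both, at 2344 ± 39.4 (SD, n = 4) normalised counts in the PC libraries and 3229 ± 14.2 (SD, n = 2) in the control. In the PC libraries Ifnar1 (1130), Irf1 (1116), Ifnar2 (770), Irf9 (753), Stat2 (643), Irf3 (634), Tyk2 (319) and Irf7 (220) followed. Of these neighbours, Ifnar1 and Irf1, Ifnar2 and Irf9, and Stat2 and Irf3 overlapped in their library values. In the control the order after Jak1 was Irf1 (2370), Stat2 (1993), Ifnar1 (1631), Irf9 (1280), Ifnar2 (1075), Irf7 (791), Irf3 (748) and Tyk2 (583), with no overlap between neighbours. On this length Stat2 and Irf7 stood lower in the order of the PC libraries than in that of the control. With the union of all annotated exons as length, Irf7 was last in both groups, at 111 in the PC libraries and 401 in the control, and Stat2 ranked above Irf1 in the control.

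**Figure D3:**
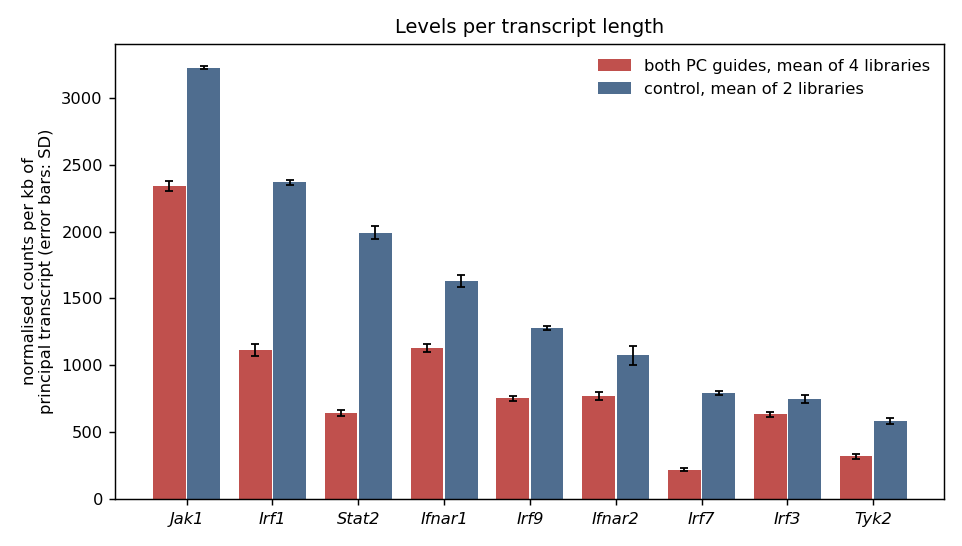
Mean normalised counts per kilobase of principal transcript for the 9 genes, in the PC libraries (left bar, n = 4) and the control (right bar, n = 2), with SD as error bars on a linear axis from 0. Jak1 is highest in both groups, while Stat2 is at 643 in the PC libraries against 1993 in the control and Irf7 at 220 against 791.

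Each guide alone gave the same calls. With PC sg2 against control all 9 members fell (lower calls among all tested genes: 31.6%), with log2 fold changes from -1.91 for Irf7 to -0.22 for Irf3 and a median of -0.74. With PC sg5 against control all 9 fell as well (31.8% of all tested genes), from -1.78 for Irf7 to -0.25 for Irf3 with a median of -0.79. Both comparisons share the control libraries, so they are not independent. The call of Irf3 with PC sg2 was lost without control replicate 1 (log2 fold change -0.18, limma adjusted p = 0.0651, where the adjusted p ranged from 0.00225 to 0.0651 over all alternatives).

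None of the 9 transcripts passed the test between the guides, while the transcript of the target did. Pcx was higher with PC sg5 than with PC sg2 by a log2 fold change of 1.05 ± 0.08 (SE, limma adjusted p = 6.60e-07). Whether the amount of pyruvate carboxylase protein differed between the guides was not tested. For PC sg5 against PC sg2 limma, edgeR and DESeq2 each called 0 of the 9 members, and limma called 0.242% of all tested genes. Before adjustment 1 member, Stat2, was below 0.05 in limma (log2 fold change 0.09, 95% interval 0.0024 to 0.18, limma adjusted p = 0.457). The 95% intervals of the 9 differences lay between -0.16 and 0.31, taken over all 9, and the interval of Jak1 was the narrowest, at -0.10 to 0.02.

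The other genes of the receptor and factor families were read from lists, beside 33.6% lower and 34.3% higher among all tested genes. All 3 measured receptor chains outside the 9 fell, Ifngr1 (-0.75) and Ifngr2 (-0.57) of the interferon gamma receptor and Il10rb (-0.59), which the interferon lambda and interleukin 10 receptors share. Of the other JAK kinases, Jak3, the partner of the common gamma chain, fell by 1.24 ± 0.07 (SE) on the log2 scale. Jak2, which serves the interferon gamma receptor, rose slightly by 0.10 ± 0.04. The rise was called with PC sg2 (0.16, limma adjusted p = 0.00222) but not with PC sg5 (0.04, limma adjusted p = 0.393). For both guides together the call was lost under quantile normalisation (0.06, limma adjusted p = 0.156) and without the intensity trend (limma adjusted p = 0.0683). Without control replicate 2 the log2 fold change of Jak2 was 0.08. The STAT genes Stat5a (-1.19), Stat3 (-0.76), Stat6 (-0.34) and Stat5b (-0.24) fell as well. Among the remaining IRF genes measured, the repressor Irf2 (-0.35) and the low-level Irf5 (-0.95) fell. The corepressors that bind IRF2 rose: Irf2bp2 (0.65), Irf2bpl (0.67) and Irf2bp1 (0.22).

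Upstream of the IRF factors, nucleic acid sensors and their adaptors were mixed. Of 27 measured genes 18 fell and 4 rose, while 5 missed the threshold, and the median log2 fold change was -0.21. Among all tested genes 33.6% fell and 34.3% rose. Without the intensity trend 14 of the 27 sensor and adaptor genes passed as lower and 4 as higher. Among those that fell, Ikbke, a kinase of IRF3 and IRF7, had a log2 fold change of -1.51 ± 0.07 (SE), the RNA sensor gene Ddx58 of -1.10 ± 0.04, its relative Dhx58 of -1.76 ± 0.07 and Samhd1, which degrades deoxynucleotides, of -1.29 ± 0.03. The 4 higher ones, chosen for mention once their values were known, were the DNA sensor gene Cgas (1.03), the ubiquitin ligase gene Traf6 (0.65), the antiviral zinc finger gene Zc3hav1 (0.45) and the TBK1 adaptor gene Tbkbp1 (0.44). Cgas had 1093 and 1134 normalised counts with PC sg2, 1152 and 960 with PC sg5, and 491 and 567 in the control. Of 8 genes in the coactivator and nuclear import list 5 rose and 2 fell (median 0.29). The import receptor genes Kpna1 and Kpnb1 were at 1.05 and 0.30. The deacetylase gene Hdac1 was at -0.63 and the acetyltransferase gene Kat2b at -0.89. The 14 interferon genes of the ligand list are not analysed here.

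Inhibitors of the receptor and STAT step fell more often than they rose. Of 18 measured genes 12 fell and 4 rose, while 2 missed the threshold, and their median was -0.52, beside 33.6% lower and 34.3% higher among all tested genes. The feedback inhibitor gene Socs3 had 2109 and 1936 normalised counts with PC sg2, 1955 and 2065 with PC sg5, and 6370 and 6756 in the control, giving a log2 fold change of -1.70 ± 0.04. Usp18, which blocks IFNAR2 signalling, fell by 1.41 ± 0.07 on the log2 scale and Pias3, an inhibitor of STAT3, by 0.87 ± 0.04. Dusp3, a phosphatase gene, rose by 1.74 ± 0.06, with 2703 and 3081 normalised counts with PC sg2, 2670 and 2779 with PC sg5, and 791 and 891 in the control. The other higher ones, chosen for mention once their values were known, were Ptpn2 (0.45), Cbl (0.41) and Pias4 (0.39).

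Downstream, most genes of both target lists fell, where 33.6% of all tested genes did and 34.3% rose. Of 32 ISGF3 target genes 29 fell and 2 rose, while 1 missed the threshold, and the median log2 fold change was -1.47, against -0.76 for the 9 and -0.01 for all tested genes. Ifitm3 (-1.57), Parp14 (-1.91), Samd9l (-1.55) and Lgals3bp (-1.08), all interferon-induced genes, fell, and the 2 higher ones, chosen in the same way, were Ifit2 (0.34) and Ifi27 (0.51). Of 22 measured targets of IRF1 and gamma-activated factors 21 fell and 1 missed the threshold (median -1.54). Without the intensity trend 17 of the 22 passed as lower, and with a pseudocount of 10 the median was -1.13. The lowest PC mean in this list was 3.17 normalised counts, a level that rests on few reads. The adhesion gene Vcam1 was at -0.94, the GTPase genes Gbp2 and Gbp3 at -1.95 and -1.94 and Iigp1 at -2.65. Counts of the Gbp, Ifit and Ifitm families and of Iigp1 are uncertain where reads match near-identical copies.

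**Figure D4:**
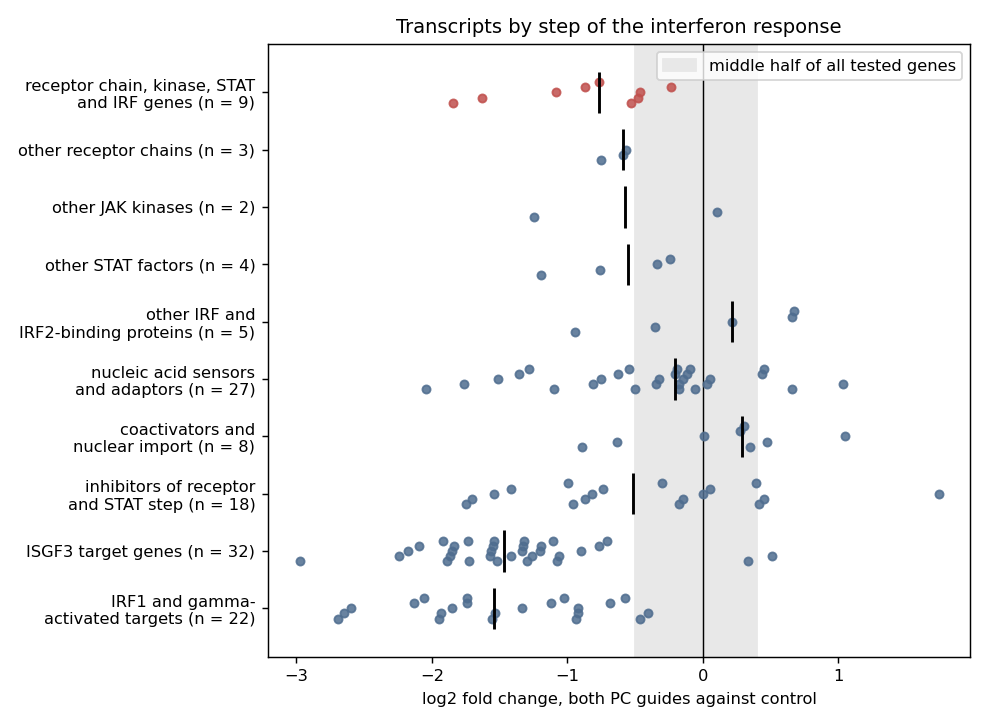
Log2 fold change of both PC guides against control (horizontal axis) for each measured gene, grouped by step of the interferon response; points are genes (the 9 on top), vertical bars are medians and the grey band is the middle 50% of all tested genes. The 9 lie between -1.85 and -0.24, the target lists have medians of -1.47 and -1.54, and the lists of other IRF and coactivator genes have medians above 0.

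The genes with profiles most like those of 4 members were found by the root mean square difference of centred log2 values over the 6 libraries, among 16477 tested entries with a symbol. Nearest to Stat2 were Mmab (0.0202), Tead3 (0.0318) and Gpsm2 (0.0361), and nearest to Irf9 were Bace1 (0.0132), Lima1 (0.0151) and Mtch1 (0.0166). For Irf7 they were Cxcl5 (0.0516), Lxn (0.0518) and Dnm3os (0.0518), and for Irf1 2810402E24Rik (0.0183), Ivd (0.0224) and Ech1 (0.0232). The measure covers 6 libraries in 3 groups and is a description only; none of the genes named for likeness is in the pathway lists above.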

How the data were processed

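RNA from 6 NIH-3T3 libraries (PC sg2, PC sg5 and control, 2 each) was measured after poly-A selection with a NEBNext Ultra kit, per the labels' protocols. Per the submitters' processing notes, the tools were bcl2fastq 2.17, Trimmomatic, STAR, featureCounts and DESeq2, with GRCm38 as build. For settings, annotation and strand use, nothing was given in the sources used here. As values the authors deposited normalised counts, a signal in which a gene's count is divided by its library's size factor. Within each library 100% of values above 0 were whole multiples of 1 step (tolerance 0.01), so whole reads were recovered; edgeR 4.0.16 called 11424 genes on them for both PC guides against control. Of 16540 IDs, 16491 matched a GENCODE M21 symbol. The lowest total of a listed gene was 61 reads; genes with fewer are not analysed here.

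Differences were tested with limma 3.58.1 (R 4.3.3) on log2(normalised count + 1), which understates changes of low genes, with 1 model of 3 groups over all 6 libraries, an intensity trend, two-sided tests, Benjamini-Hochberg adjustment and a threshold of 0.05. A gene entered the test when 2 or more libraries reached 10 normalised counts (16526, with 14 removed); all 9 members passed this filter. Residual degrees of freedom were 3, and the prior added 17.3 (median). On simulated counts for both PC guides against control, limma recovered 91% of 100 genes changed by 0.5 and 99% of 100 changed by 1 on the log2 scale, among 16477 genes. The simulation assumed a dispersion of 0.002 and few changed genes, whereas 67.9% were called in the data. Its rates therefore do not measure the power of this experiment. Levels were compared between genes per kilobase of the longest APPRIS principal transcript. Beyond the 9 members and Pcx, the measured receptor, JAK, STAT and IRF relatives, the 4 genes with the smallest p of each other list, and the 3 nearest profiles of 4 members were named. The other higher genes of the sensor, inhibitor and ISGF3 target lists, and Col1a1 and Fn1, were added after their values were seen. Another gene of the lists is not reported here. The members and lists were chosen with earlier results of these data known. Alternatives changed the pseudocount, filter, normalisation, trend, replicate term, test (edgeR, DESeq2 1.42.0) and libraries.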

Additional observations from a re-analysis of the deposited data

How the results depend on the processing

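The 9 members gave the same number of lower calls for both PC guides and for PC sg5 against control under all 16 alternatives, and for PC sg2 under all but 1, where 8 were called (without control replicate 1). Over these alternatives the log2 fold changes of both guides together ranged from -1.87 to -1.80 for Irf7, from -1.66 to -1.59 for Stat2 and from -0.28 to -0.19 for Irf3. For PC sg5 against PC sg2, no alternative called a member. Of 144 values, 5 changed sign: when 1 library was left out, Tyk2 lay between -0.034 and 0.13 (-0.0059 without PC sg2 replicate 1), Irf1 between -0.069 and 0.033 (0.030 without PC sg2 replicate 2) and Irf3 between -0.077 and 0.013. The count of all genes called between the guides, 40, was 65 with a pseudocount of 10, 65 where means under 50 normalised counts were dropped, 68 with edgeR, 91 with DESeq2, 0 without the intensity trend, and 10 to 218 when 1 library was left out, the highest without PC sg5 replicate 1; the cause was not tested. With the replicate number as a block the count was 160, against 11352 for both guides against control (11222 without it), and 9 members were called as before. Same-numbered libraries did not deviate together (correlations of 0.0307, -0.0219 and 0.0251). These correlations cannot show whether such libraries were cultured or processed together. Quantile normalisation and rescaling without the 50 most abundant genes moved the median of all genes to 0.05 and 0.03, against -0.01. Depth limits Irf7 most, with 210 reads in PC sg5 replicate 2.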
